A study of Mus musculus with 18 samples.

Results

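The 10 genes described here are read as markers of macrophage activation, and were measured in 3 macrophage populations sorted from the inflamed mouse lung: Arg1, Arg2, Nos2, Ass1 and Slc7a2, which handle arginine, Acod1, which makes itaconate, and Retnla, Ido1, Sod2 and Socs3. They were chosen by name, for their known roles, with earlier results of these data known. Shares of all genes set beside their counts are therefore a description and not a test. They are 10 of the 21254 genes in the count table, and all 10 were among the 15811 genes with enough reads to be tested. The libraries were made from bulk RNA of moMs (monocyte-derived macrophages, sorted as CD45+CD11b+MHC-II-Ly6C+), tnsIMs (transitional interstitial macrophages, CD45+CD11b+MHC-II+Ly6C+) and matIMs (mature interstitial macrophages, CD45+CD11b+MHC-II+Ly6C-), with 3 libraries for each population and genotype, 18 in all. Every mouse inhaled a nebulized solution of 12.5 mg Pseudomonas aeruginosa LPS in 5 ml for 15 minutes and was killed 24 h later, so that no group was without LPS. The mice were 3 to 5 months old, of both sexes and on a C57BL/6 background. WT mice carried the B6.Cx3cr1tm1.1(cre)Jung/J allele alone, and Ezr-KOm mice carried the same Cre and a floxed ezrin gene, so both genotypes shared the altered Cx3cr1 locus and the deletion reached any cell that had used the Cx3cr1 promoter.

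Macrophages use arginine in competing ways. The transporter encoded by Slc7a2 brings arginine into the cell, the inducible nitric oxide synthase encoded by Nos2 turns it into nitric oxide and citrulline, the arginases encoded by Arg1 (in the cytosol) and Arg2 (in mitochondria) split it into ornithine and urea, and argininosuccinate synthase, encoded by Ass1, takes part in remaking it from citrulline. Nos2, Acod1, Ido1, Sod2 and Socs3 are textbook genes of the response to LPS and interferon (classical or M1 activation), whereas Arg1 and Retnla, which encodes the secreted protein RELM-alpha, are textbook genes of the response to IL-4 and IL-13 (alternative or M2 activation).

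The sequences just before the start of 4 of the genes are shown because each carries a short pattern bound by a factor of LPS, interferon or IL-4 signalling. Each is the 250 bases before the first base of the Ensembl canonical transcript, read from the GRCm39 genome on the strand of the gene, and none of these windows overlapped an annotated exon. The Retnla window lies at chr16:48662645-48662894 on the + strand, the Arg2 window at chr12:79177274-79177523 on the + strand, the Nos2 window at chr11:78811363-78811612 on the + strand and the Ido1 window at chr8:25087026-25087275 on the - strand. Capitals mark a match, on either strand, to one of 5 patterns: the TATA box, the STAT6 pattern, the gamma-interferon activated site (GAS), the interferon-stimulated response element (ISRE) and the NF-kB consensus. The TATA box was searched as TATAAA. The STAT6 pattern is TTC, then 4 bases of any kind, then GAA, and GAS differs from it in having 3 bases there. The ISRE is GAAA repeated after 2 bases of any kind.
Retnla: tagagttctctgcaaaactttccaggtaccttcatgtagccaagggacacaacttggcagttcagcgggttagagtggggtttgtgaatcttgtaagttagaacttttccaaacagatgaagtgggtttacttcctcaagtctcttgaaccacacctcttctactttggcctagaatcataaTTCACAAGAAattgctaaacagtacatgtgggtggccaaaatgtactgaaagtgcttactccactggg
Arg2: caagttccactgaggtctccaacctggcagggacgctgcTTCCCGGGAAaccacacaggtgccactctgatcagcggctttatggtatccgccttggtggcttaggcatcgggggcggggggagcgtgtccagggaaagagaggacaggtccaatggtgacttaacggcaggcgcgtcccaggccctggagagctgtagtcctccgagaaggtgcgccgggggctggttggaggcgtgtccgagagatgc
Nos2: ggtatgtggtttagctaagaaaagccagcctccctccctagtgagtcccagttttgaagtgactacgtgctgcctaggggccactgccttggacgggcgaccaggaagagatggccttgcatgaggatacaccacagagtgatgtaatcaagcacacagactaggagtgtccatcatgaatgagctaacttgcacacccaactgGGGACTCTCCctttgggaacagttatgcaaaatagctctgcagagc
Ido1: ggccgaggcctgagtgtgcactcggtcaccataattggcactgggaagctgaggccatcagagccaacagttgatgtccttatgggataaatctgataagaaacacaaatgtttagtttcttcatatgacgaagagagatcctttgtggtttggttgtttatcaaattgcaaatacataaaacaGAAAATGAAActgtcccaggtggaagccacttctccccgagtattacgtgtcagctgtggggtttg
The Retnla window held 1 STAT6 pattern, which began 68 bases before the start, and the Arg2 window held 1 that began 211 bases before it. The Nos2 window held 1 NF-kB match that began 46 bases before the start, and the Ido1 window held 1 ISRE pattern that began 66 bases before it. The matches did not overlap one another. Of the 250-base windows of 21757 protein-coding genes, 5.9% held the STAT6 pattern, 4.23% the NF-kB consensus, 3.32% the ISRE pattern, 7.7% the GAS pattern and 11.9% the TATA box. A match is a run of letters and not a shown binding site. The Sod2 and Socs3 windows each held 1 GAS pattern, but overlapped annotated exons, as did those of Arg1 and Slc7a2, and are not printed. No pattern was found in the windows of Arg1, Acod1, Ass1 and Slc7a2.

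The libraries held 16512783 to 48460995 counted reads. Levels are given as CPM, read counts scaled to library size by the TMM method, and differences as log2 fold changes with their standard errors from edgeR. A gene was said to rise or fall where the Benjamini-Hochberg adjusted p over all 15811 genes was under 0.05. Such a p measures the spread between these libraries. In bulk RNA, fewer cells of one type and less RNA per cell cannot be told apart. Ezr itself was lower in every Ezr-KOm library than in every WT library of its population, with 160 to 282 CPM against 497 to 593 CPM in moMs and 93.8 to 167 CPM against 611 to 741 CPM in matIMs. Its fall passed the test in tnsIMs (log2 fold change -1.62 ± 0.24, edgeR adjusted p = 0.00365) and in matIMs (-2.29 ± 0.25, edgeR adjusted p = 7.73e-05), and in moMs it stood at -1.20 ± 0.24 with an edgeR adjusted p of 0.0549. The sorted identities were visible in mRNA: among WT means, Ly6c2 went from 481 CPM in moMs to 51.2 CPM in matIMs, and the MHC-II gene H2-Ab1 from 1348 CPM to 15361 CPM. Markers of other cells were present as well. The summed level of 10 mature dendritic cell markers was 9161 to 13685 CPM in matIMs against 1888 to 2883 CPM in moMs, and that of 10 epithelial markers was 1789 to 4265 CPM in tnsIMs against 89.4 to 218 CPM in moMs, although the gate took CD45+CD11b+ cells.

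**Figure D1:**
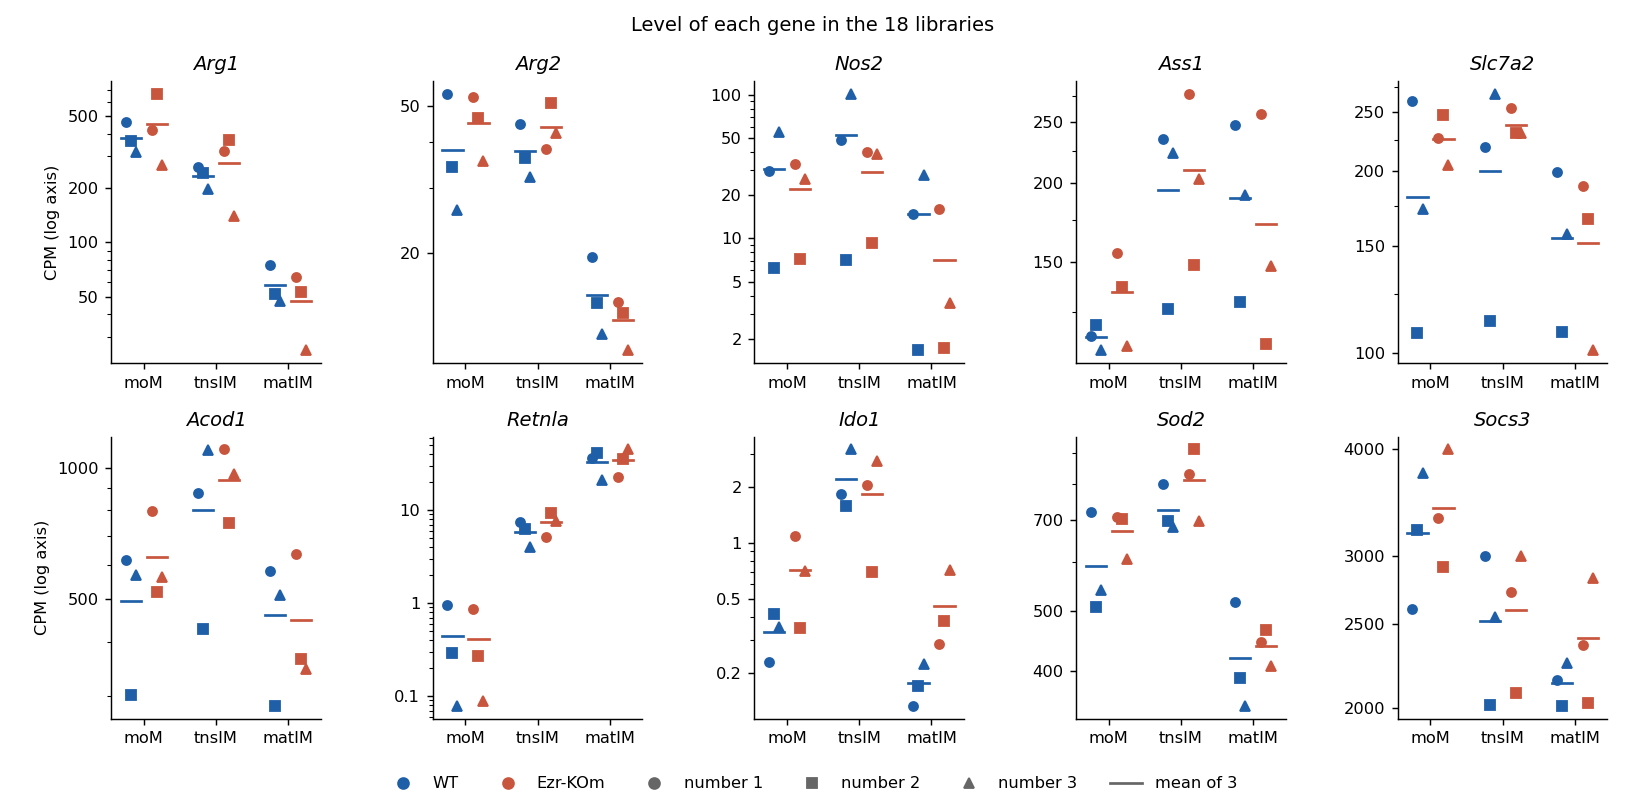
Level of each of the 10 genes in CPM (log axis, a different range in each panel) in the 18 libraries, by population, with WT in blue and Ezr-KOm in red, symbols for the replicate number and a bar at the mean of 3 libraries. Arg1 and Arg2 lie lowest in matIMs, Retnla lies highest there, Ido1 peaks in tnsIMs, and the libraries of number 2 lie lowest for Nos2 in all 6 groups.

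Levels of different genes were set side by side per kilobase of exon, taking the exons of all annotated transcripts of a gene together. On that scale Socs3 was the most abundant of the 10 and Acod1 came next in all 6 groups. The ranks depend on this choice of length, which was 13039 bases for Sod2, 10115 for Slc7a2 and 3195 for Arg1. In WT moMs, Socs3 stood at 896 ± 161 CPM per kilobase (SD, n = 3), Acod1 at 189 ± 64.5 and Arg1 at 119 ± 23.6. Acod1 and Arg1 overlapped there, with 115 to 235 and 98.6 to 145 CPM per kilobase. Retnla was the ninth of the 10 in WT moMs, at 0.721 ± 0.752 CPM per kilobase, and the third in WT matIMs, at 53.4 ± 17.1, where its libraries overlapped those of Ass1 at 50.7 ± 15.8. Ido1 was the last in all 6 groups, at 0.0962 to 1.20 CPM per kilobase among the means of the WT groups.

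Across the populations of WT mice, the arginases and Retnla moved in opposite directions. From moMs to matIMs, Retnla rose about 80.9-fold, from only 17, 7 and 2 counts in the moM libraries. Between libraries of the same number, which were not taken to pair this comparison, the ratios were 37.6, 143 and 269. Arg1 fell to 0.153 and Arg2 to 0.404 of their moM levels. Of the 10 genes, 1 rose and 4 fell in this comparison, against 13.4% and 11.4% of all genes tested. Sod2 and Socs3 were the others that fell. From moMs to tnsIMs, 2 of the 10 rose and none fell, against 13% and 8.61% of all genes. The pair that rose was Retnla and Ido1, and by DESeq2 3 of the 10 passed. From tnsIMs to matIMs, 1 rose (Retnla) and 4 fell (Arg1, Arg2, Ido1 and Sod2), against 8.32% and 10.2% of all genes. These comparisons share libraries, each population entering 2 of them. Leaving out tnsIM library 2 gave 4 calls from moMs to tnsIMs, and leaving out matIM library 2 or 3 gave 3 from moMs to matIMs.

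In Ezr-KOm mice, from moMs to tnsIMs 1 of the 10 rose (Retnla) and none fell, against 9.23% and 5.04% of all genes. From tnsIMs to matIMs, 1 rose (Retnla) and 5 fell (Arg1, Arg2, Acod1, Ido1 and Sod2), against 8.37% and 9.85% of all genes. From moMs to matIMs, 1 rose (Retnla) and 3 fell (Arg1, Arg2 and Sod2), against 12.5% and 10.7% of all genes. DESeq2 gave 5 calls in place of 4 in the last comparison and the same numbers of calls as edgeR in the other two. Libraries that bear the same replicate number deviated from their group means together, and a fit that also took the mouse (genotype and number together) as a block made more calls. From moMs to tnsIMs it called 6 of the 10 genes in WT and 6 in Ezr-KOm mice. The share of all genes called is not given for fits with a block or for DESeq2. Whether these 10 genes gained more calls than other genes therefore cannot be told here. Without Ezr-KOm tnsIM library 2 there were 2 calls in place of 1 in that comparison.

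**Figure D2:**
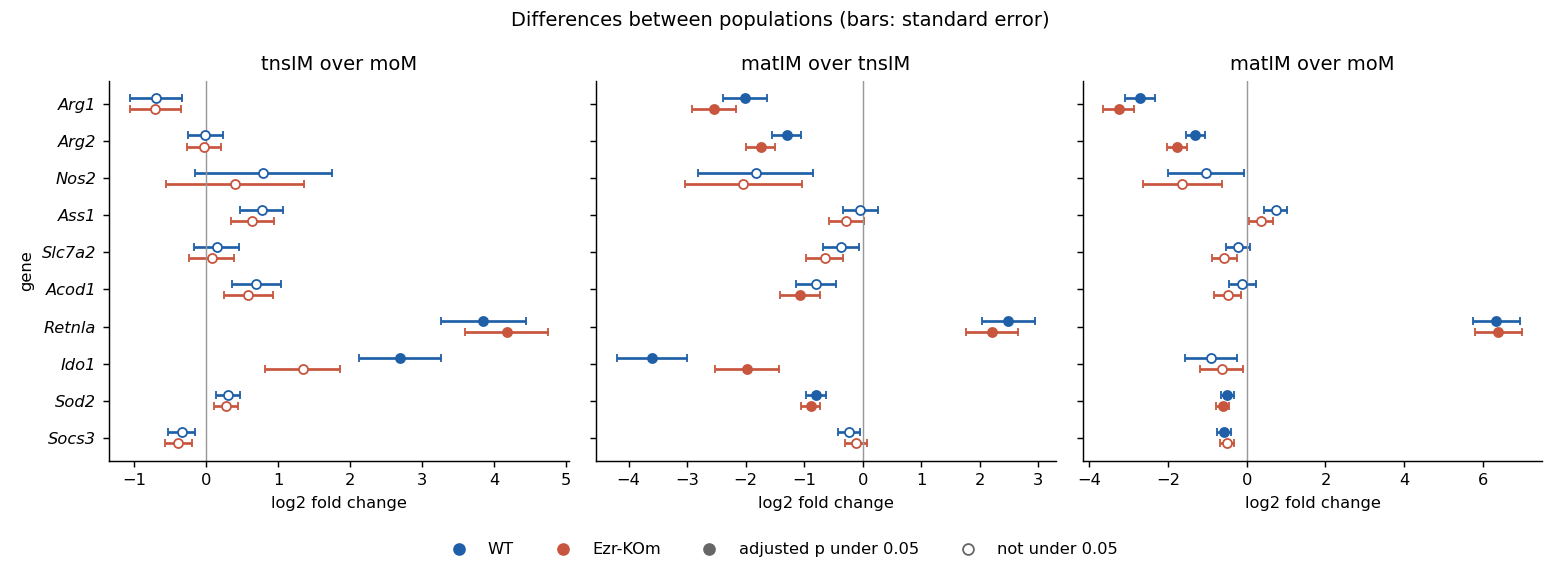
Log2 fold change of each gene between populations, tnsIM over moM, matIM over tnsIM and matIM over moM, in WT (blue) and Ezr-KOm (red) mice; bars are standard errors and filled points have an edgeR adjusted p under 0.05. Retnla lies right of 0 in all 3 panels, and Arg1 and Arg2 lie left of it, filled, wherever matIMs are compared.

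Arg1, the cytosolic arginase (chr10:24791119-24803382, - strand, GRCm39), was measured at 463, 362 and 315 CPM in the WT moM libraries of numbers 1, 2 and 3, at 262, 243 and 198 CPM in tnsIMs and at 74.6, 52.1 and 47.6 CPM in matIMs. The 3 populations did not overlap, and the level stepped down from each to the next. Arg1 fell from tnsIMs to matIMs (log2 fold change -2.01 ± 0.37, edgeR adjusted p = 0.00064) and from moMs to matIMs (-2.71 ± 0.38, edgeR adjusted p = 3.13e-05). The step from moMs to tnsIMs, -0.70 ± 0.36, did not pass (edgeR adjusted p = 0.179), but passed with the mouse as a block (-0.69 ± 0.14, edgeR adjusted p = 0.00155). In Ezr-KOm mice the values were 422, 665 and 267 CPM in moMs, 319, 370 and 140 CPM in tnsIMs and 63.9, 53.3 and 25.3 CPM in matIMs. There moMs and tnsIMs overlapped and matIMs lay below both, at -3.25 ± 0.39 against moMs (edgeR adjusted p = 5.16e-06) and -2.54 ± 0.38 against tnsIMs (edgeR adjusted p = 8.16e-05). The tnsIM value against moMs, -0.71 ± 0.36, did not pass, but passed with the mouse as a block (-0.74 ± 0.14, edgeR adjusted p = 0.0012). With the number alone as a block, the step also passed in both genotypes, at -0.69 ± 0.23 in WT (edgeR adjusted p = 0.0282) and -0.73 ± 0.23 in Ezr-KOm mice (edgeR adjusted p = 0.028). In the WT pairs of the same number, the tnsIM library held 3.51, 4.67 and 4.17 times the Arg1 of the matIM library.

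Arg2, the mitochondrial arginase (chr12:79177551-79203075, + strand), was lower than Arg1 per kilobase in all 6 groups and, unlike Arg1, had no step between moMs and tnsIMs. Its WT values were 54.1, 34.1 and 26.2 CPM in moMs, 44.9, 36.3 and 32.1 CPM in tnsIMs, and 19.5, 14.7 and 12.1 CPM in matIMs. The moM and tnsIM ranges overlapped, with a difference of -0.01 ± 0.24 on the log2 scale, and all matIM libraries lay below them. Arg2 fell to matIMs by nearly the same amount from moMs (-1.31 ± 0.25, edgeR adjusted p = 0.000579) and from tnsIMs (-1.30 ± 0.25, edgeR adjusted p = 0.000815). In Ezr-KOm mice, with 53.1, 46.5 and 35.6 CPM in moMs, 38.4, 51.1 and 42.4 CPM in tnsIMs and 14.8, 13.8 and 10.9 CPM in matIMs, the fall to matIMs was -1.78 ± 0.25 from moMs (edgeR adjusted p = 3.01e-05) and -1.74 ± 0.25 from tnsIMs (edgeR adjusted p = 5.13e-05). Exons of Arg2 overlap those of Vti1b on the opposite strand, which held 32891 counts over the 18 libraries against 14810 for Arg2, and whether the counting used strand is not given in the sources used here. Over the 18 libraries the log2 CPM of Arg1 and Arg2 had a Pearson correlation of 0.93, a description of libraries that fall into 3 populations.

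Nos2, the inducible nitric oxide synthase (chr11:78811613-78851080, + strand), differed more between the libraries of a group than between populations. In WT mice it was measured at 29.4, 6.22 and 55.0 CPM in moMs, at 48.3, 7.04 and 101 CPM in tnsIMs and at 14.9, 1.67 and 27.6 CPM in matIMs. In Ezr-KOm mice it was measured at 33.0, 7.21 and 25.9 CPM in moMs, at 40.0, 9.30 and 38.4 CPM in tnsIMs and at 15.9, 1.72 and 3.56 CPM in matIMs. The library of number 2 was the lowest in 6 of 6 groups, in both genotypes, and the highest library exceeded the lowest 4.30-fold to 16.6-fold within a group. Of all genes tested, 0.942% had their lowest library at number 2 in all 6 groups. No population comparison of Nos2 passed the test, the largest being matIMs against tnsIMs at -1.83 ± 0.99 in WT (edgeR adjusted p = 0.247) and -2.04 ± 1.01 in Ezr-KOm mice (edgeR adjusted p = 0.197). With the mouse as a block, matIMs fell below tnsIMs in WT (-1.84 ± 0.28, edgeR adjusted p = 0.000103) and in Ezr-KOm mice (-2.27 ± 0.29, edgeR adjusted p = 1.72e-05). Within each number, the WT tnsIM library held 3.24, 4.22 and 3.68 times the Nos2 of the matIM library, and the Ezr-KOm library 2.51, 5.40 and 10.8 times. The 3 genes whose log2 CPM followed Nos2 most closely over the 18 libraries were Gbp6 (Pearson r = 0.92), Calhm6 (0.91) and Batf2 (0.89), among 15810 genes.

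**Figure D3:**
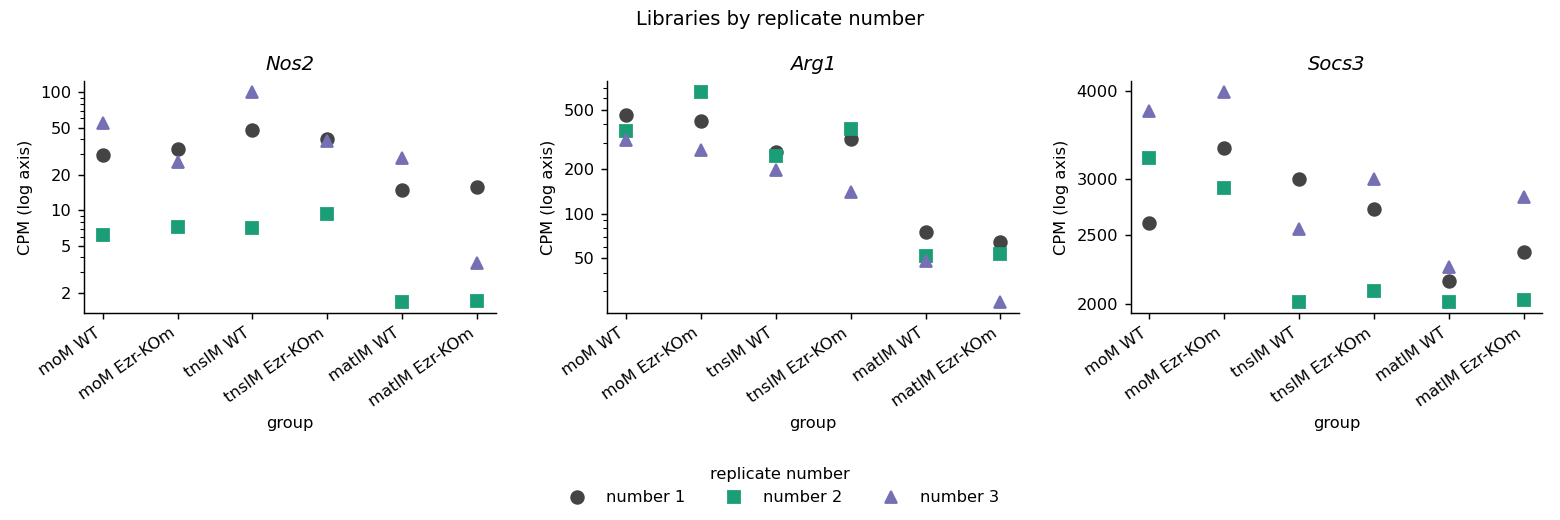
CPM (log axis) of Nos2, Arg1 and Socs3 in the 6 groups, with each library drawn by its replicate number. Number 2 is the lowest library for Nos2 in 6 of 6 groups and for Socs3 in 5 of 6, and number 3 is the lowest for Arg1 in 6 of 6.

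The order of the numbers was not the same for every gene. Arg1 was lowest in number 3 in 6 of 6 groups, as were 1.63% of all genes, and Socs3 was lowest in number 2 in 5 of 6. Acod1 was lowest in number 2 in 5 of 6 groups and Sod2 in number 3 in 5 of 6. Ass1 and Slc7a2 each had their lowest library at number 2 in 4 of 6 groups. Retnla was lowest in number 3 in 4 of 6 groups and in number 1 in 2 of 6. Ido1 was lowest in numbers 1 and 2 in 3 of 6 groups each. In WT matIMs, numbers 1 to 3 held 36.4, 41.5 and 21.2 CPM of Retnla. In Ezr-KOm matIMs they held 22.6, 35.7 and 45.1 CPM. The lowest number was thus the same in both genotypes for Nos2 and Arg1, but not for every gene. What a number stands for is not given in the sources used here.

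Ass1 (chr2:31360219-31410684, + strand) stood at 115, 119 and 109 CPM in WT moMs, at 235, 126 and 224 CPM in tnsIMs and at 248, 130 and 192 CPM in matIMs. All 3 moM libraries lay below all tnsIM and matIM libraries, and the library of number 2 was the one that lay closest to them. The difference of 0.77 ± 0.30 between tnsIMs and moMs did not pass (edgeR adjusted p = 0.0756) but passed with the mouse as a block (0.70 ± 0.20, edgeR adjusted p = 0.0133), and that of 0.73 ± 0.30 between matIMs and moMs did not pass (edgeR adjusted p = 0.0861). In Ezr-KOm mice, Ass1 was measured at 155, 137 and 111 CPM in moMs, 277, 148 and 203 CPM in tnsIMs and 258, 111 and 148 CPM in matIMs, and the populations overlapped. The Ezr-KOm value of tnsIMs over moMs was 0.64 ± 0.30 (edgeR adjusted p = 0.178), and with the mouse as a block 0.59 ± 0.20 (edgeR adjusted p = 0.0416). The gene most like Ass1 across the libraries was Gm5424 (r = 0.86), a processed pseudogene whose whole transcript of 1240 bases aligned to an Ass1 transcript with 99.5% identity. Gm5424 held 893 counts against 77198 for Ass1, and reads that match both equally cannot be given to either.

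Slc7a2, the arginine transporter (chr8:41315433-41375345, + strand), showed no change between populations that passed the test. Its WT values were 261, 108 and 173 CPM in moMs, 219, 113 and 268 CPM in tnsIMs and 199, 108 and 157 CPM in matIMs. In Ezr-KOm mice they were 226, 248 and 204 CPM in moMs, 254, 231 and 231 CPM in tnsIMs and 189, 167 and 101 CPM in matIMs. The WT populations overlapped throughout, and the Ezr-KOm matIM libraries lay below the others (-0.65 ± 0.31 against tnsIMs, edgeR adjusted p = 0.186). With the mouse as a block this last difference was -0.68 ± 0.17 (edgeR adjusted p = 0.00636).

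Acod1, aconitate decarboxylase, which makes itaconate from a citrate cycle intermediate (chr14:103284413-103294009, + strand), was measured at 616, 302 and 567 CPM in WT moMs, at 875, 428 and 1102 CPM in tnsIMs and at 582, 285 and 511 CPM in matIMs. The populations overlapped, yet within each number the tnsIM library was the highest of the 3. Neither the value of tnsIMs over moMs, 0.70 ± 0.34 (edgeR adjusted p = 0.161), nor that of matIMs over tnsIMs, -0.80 ± 0.34 (edgeR adjusted p = 0.124), passed the test. With the mouse as a block both did, at 0.66 ± 0.13 (edgeR adjusted p = 0.00128) and -0.77 ± 0.13 (edgeR adjusted p = 0.00037). In Ezr-KOm mice Acod1 stood at 798, 519 and 562 CPM in moMs, at 1103, 748 and 969 CPM in tnsIMs and at 634, 365 and 346 CPM in matIMs. It fell from tnsIMs to matIMs there without the block (-1.07 ± 0.34, edgeR adjusted p = 0.0367), with no overlap between the groups. That call was lost when tnsIM library 1 or 3 or matIM library 2 or 3 was left out, with edgeR adjusted p-values of 0.058 to 0.14. The value of tnsIMs over moMs in Ezr-KOm mice, 0.59 ± 0.34, passed with the mouse as a block (0.60 ± 0.13, edgeR adjusted p = 0.00363) and with the number alone as a block (0.59 ± 0.20, edgeR adjusted p = 0.0477).

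Retnla, which encodes RELM-alpha (chr16:48662914-48664824, + strand), differed more from moMs than any other of the 10 genes did, in tnsIMs and in matIMs of both genotypes. WT moMs held 0.968, 0.290 and 0.0787 CPM, from 17, 7 and 2 counts, WT tnsIMs held 7.38, 6.21 and 4.04 CPM, and WT matIMs held 36.4, 41.5 and 21.2 CPM. Each population lay wholly above the one before it. Retnla rose from moMs to tnsIMs (3.85 ± 0.59, edgeR adjusted p = 0.000137), from tnsIMs to matIMs (2.49 ± 0.45, edgeR adjusted p = 0.000538) and from moMs to matIMs (6.34 ± 0.59, edgeR adjusted p = 2.47e-07). Ezr-KOm libraries held 0.870, 0.270 and 0.0881 CPM in moMs, 5.15, 9.32 and 7.67 CPM in tnsIMs and 22.6, 35.7 and 45.1 CPM in matIMs, and again no population overlapped another. The Ezr-KOm rise was 4.17 ± 0.57 from moMs to tnsIMs (edgeR adjusted p = 8.44e-05), 2.21 ± 0.44 from tnsIMs to matIMs (edgeR adjusted p = 0.00127) and 6.39 ± 0.59 from moMs to matIMs (edgeR adjusted p = 1.88e-07). Since 1 moM library of each genotype held 2 counts, a fold against moMs rests on few reads. Without moM library 1, the rise to tnsIMs was 4.97 in WT and 5.34 in Ezr-KOm mice and that to matIMs 7.43 and 7.52, and over all the alternatives run the rise to matIMs was 5.76 to 7.43 in WT and 5.91 to 7.52 in Ezr-KOm mice. Retnla passed in each of them, and a filter that asks for at least 10 counts in every library removed the gene.

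Mature dendritic cell markers rose with Retnla. Of 10 such markers, 9 rose and none fell from moMs to matIMs in WT, as in Ezr-KOm mice, and 8 of 10 conventional dendritic cell markers rose in each genotype. The summed CPM of the mature list was 2219 to 4049 in tnsIMs, and that of the conventional list was 848 to 1713 in matIMs against 94.2 to 319 in moMs and tnsIMs. Among WT means, Ccr7, which steers dendritic cells to lymph nodes, went from 13.5 CPM in moMs to 1815 CPM in matIMs, and Zbtb46, a transcription factor of conventional dendritic cells, from 3.49 to 120 CPM. From moMs to tnsIMs, 7 of the 10 mature markers rose and none fell in each genotype, Ccr7 going from 13.5 to 108 CPM and Fscn1, an actin-bundling protein, from 1.40 to 40.2 CPM among WT means. In moMs and tnsIMs the sum of that list is made up largely of Cd83, at 2058 and 2325 CPM among WT means. In WT matIMs Cd83 held 3857 CPM, and Ccl22 and Ccl17, which are also on the M2 list below, 2633 and 1563 CPM. Of 8 macrophage markers, 3 rose and 3 fell from WT moMs to matIMs. Among WT means, the complement gene C1qa went from 91.8 to 307 CPM, C1qb from 326 to 751 CPM and C1qc from 144 to 424 CPM. Lyz2 went from 23279 to 6570 CPM, Csf1r from 2571 to 1473, Fcgr1 from 251 to 114 and Adgre1 from 427 to 305. Mertk stood at 24.1 and 18.3 CPM. The macrophage sum was 21494 to 30544 CPM in moMs, 13012 to 19902 CPM in tnsIMs and 8209 to 10555 CPM in matIMs.

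Markers of B cells moved with Retnla too. All 10 rose from moMs to matIMs in each genotype and 8 of the 10 from moMs to tnsIMs. Among WT means, Cd79a, part of the B cell receptor, went from 0.270 CPM in moMs to 13.8 CPM in tnsIMs and 56.7 CPM in matIMs, and Ms4a1, which encodes CD20, from 0.198 to 6.31 and 32.8 CPM. The B cell sum was 88.6 to 177 CPM in moMs, 141 to 306 CPM in tnsIMs and 273 to 643 CPM in matIMs. Of 10 alveolar macrophage markers, 8 rose and 1 fell from moMs to matIMs in each genotype, although their sum, which holds Chil3, was 4971 to 8423 CPM in moMs and 435 to 717 CPM in matIMs. The study's gate took these populations from the CD11c- fraction of the cells. The part of dendritic cells, B cells and alveolar macrophages in the rise of Retnla was not tested. The genes most like Retnla across the 18 libraries were Vash1 (r = 0.97), H2-M2 (0.97) and Cd81 (0.97).

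**Figure D4:**
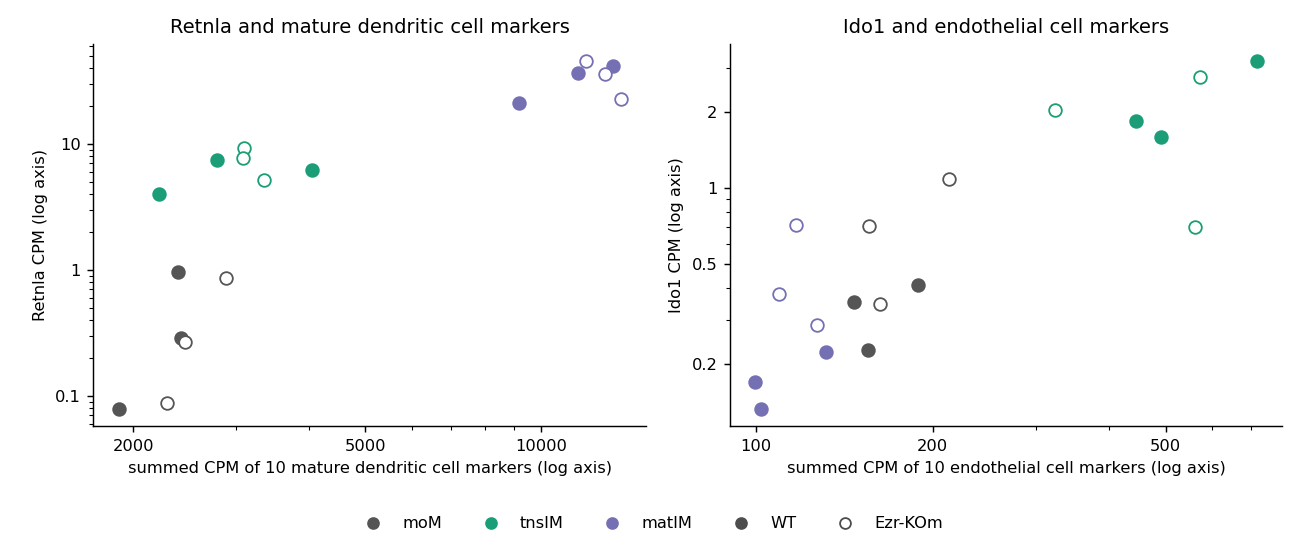
Left, CPM of Retnla against the summed CPM of 10 mature dendritic cell markers; right, CPM of Ido1 against the summed CPM of 10 endothelial cell markers, in 18 libraries (all axes log), coloured by population with filled points for WT and open points for Ezr-KOm. The 6 matIM libraries hold the highest Retnla and the highest dendritic cell sums, and the 6 tnsIM libraries hold the highest endothelial sums.

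Ido1, indoleamine 2,3-dioxygenase, the first enzyme of tryptophan breakdown to kynurenine (chr8:25074152-25087025, - strand), was scarce in every group and peaked in tnsIMs. WT moMs held 0.228, 0.414 and 0.354 CPM (4, 10 and 9 counts), tnsIMs 1.84, 1.59 and 3.17 CPM (44, 25 and 81 counts), and matIMs 0.133, 0.171 and 0.224 CPM (3, 4 and 6 counts). All WT tnsIM libraries lay above all others of that genotype. Ido1 rose 6.48-fold from moMs to tnsIMs (standard error 0.57 on the log2 scale, edgeR adjusted p = 0.00207) and fell from tnsIMs to matIMs (-3.60 ± 0.61, edgeR adjusted p = 0.000263). Ezr-KOm libraries held 1.09, 0.347 and 0.705 CPM in moMs, 2.04, 0.698 and 2.76 CPM in tnsIMs and 0.287, 0.378 and 0.713 CPM in matIMs, and the tnsIM library of number 2 lay within the range of the other populations. The Ezr-KOm fall from tnsIMs to matIMs passed (-1.98 ± 0.54, edgeR adjusted p = 0.0136), but not without tnsIM library 3 or matIM library 1 or 2, when the edgeR adjusted p was 0.06 to 0.0616. The Ezr-KOm value of tnsIMs over moMs was 1.34 ± 0.52 (edgeR adjusted p = 0.1), and 1.26 ± 0.43 with the mouse as a block (edgeR adjusted p = 0.0467).

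Markers of structural lung cells peaked in tnsIMs with Ido1. Over both genotypes, the summed CPM of 10 endothelial markers was 323 to 717 in tnsIMs. It was 147 to 213 in moMs and 99.6 to 132 in matIMs. All 10 rose from moMs to tnsIMs and fell from tnsIMs to matIMs in WT mice. Of 10 fibroblast markers, 8 rose and then 8 fell over the same steps, and of 10 epithelial markers 8 rose and 7 fell. The endothelial marker Cdh5 went from 6.97 CPM in moMs to 29.2 CPM in tnsIMs and 2.54 CPM in matIMs among WT means. In the Ezr-KOm tnsIM library of number 2, where Ido1 was lowest, the endothelial sum was 560 CPM, within the range of the other tnsIM libraries. The part of these cells in the level of Ido1 was not tested. Lamb2 (r = 0.93), Arhgap42 (0.90) and Syde1 (0.90) were the genes most like Ido1 across the libraries.

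Sod2, the mitochondrial superoxide dismutase (chr17:13225733-13258950, + strand), was measured at 723, 507 and 541 CPM in WT moMs, at 802, 699 and 682 CPM in tnsIMs and at 517, 390 and 352 CPM in matIMs. The matIM libraries lay below all tnsIM libraries and reached into the moM range. Sod2 fell from tnsIMs to matIMs (-0.79 ± 0.17, edgeR adjusted p = 0.00181) and from moMs to matIMs (-0.49 ± 0.16, edgeR adjusted p = 0.035). The second call was lost without moM library 1, when the value was -0.35 (edgeR adjusted p = 0.182), without matIM library 2 (-0.47, edgeR adjusted p = 0.118) or without matIM library 3 (-0.38, edgeR adjusted p = 0.152). It was also lost with upper-quartile scaling (edgeR adjusted p = 0.0833) or library totals (edgeR adjusted p = 0.0782) in place of TMM. The same held with the WT libraries fitted alone (edgeR adjusted p = 0.0694). In Ezr-KOm mice, with 708, 705 and 606 CPM in moMs, 833, 910 and 698 CPM in tnsIMs and 446, 465 and 407 CPM in matIMs, the matIM libraries lay below all others. The fall there was -0.89 ± 0.17 from tnsIMs (edgeR adjusted p = 0.000718) and -0.61 ± 0.16 from moMs (edgeR adjusted p = 0.00999), the latter with an edgeR adjusted p of 0.0512 without moM library 1. The tnsIM value over moMs in WT, 0.30 ± 0.16, passed only with the mouse as a block (0.32 ± 0.10, edgeR adjusted p = 0.0271). Sod2 lies 6.18 Mb from Ezr on the same chromosome.

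Socs3, an inhibitor of signalling by IL-6 and related cytokines that is itself induced by STAT3 (chr11:117856905-117860873, - strand), was measured at 2603, 3218 and 3751 CPM in WT moMs, at 3004, 2013 and 2550 CPM in tnsIMs and at 2153, 2010 and 2254 CPM in matIMs. The matIM libraries lay below all moM libraries, and tnsIMs overlapped both. Socs3 fell from moMs to matIMs (-0.58 ± 0.19, edgeR adjusted p = 0.03), a call that was lost without moM library 2 or 3 or any one of the matIM libraries, with edgeR adjusted p-values of 0.0546 to 0.13. The call was also lost with library totals in place of TMM (edgeR adjusted p = 0.0739). Ezr-KOm values were 3321, 2918 and 3992 CPM in moMs, 2722, 2082 and 2998 CPM in tnsIMs and 2368, 2028 and 2827 CPM in matIMs. The Ezr-KOm difference between matIMs and moMs was -0.50 ± 0.19 (edgeR adjusted p = 0.0604), and that between tnsIMs and moMs -0.39 ± 0.19, which passed with the mouse as a block (-0.40 ± 0.14, edgeR adjusted p = 0.0464).

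The effect of ezrin on these genes was asked by comparing Ezr-KOm with WT libraries of the same population. None of the 10 genes passed an edgeR adjusted p of 0.05 in moMs, tnsIMs or matIMs, where 0.171%, 0.164% and 0.152% of all genes did. At an unadjusted p under 0.05 there were 0, 0 and 1 of the 10, against 592, 512 and 607 of the 15811 genes tested. DESeq2 called 0 of the 10 in each population. The study's own rule, an absolute log2 fold change over 0.75 with an unadjusted p under 0.05, was met by 0 of the 10 in moMs, 0 in tnsIMs and 1 in matIMs, against 2.51%, 1.83% and 2.4% of all genes. The gene was Ido1 in matIMs, at 1.33 ± 0.63 (edgeR quasi-likelihood test, adjusted p = 1), from 8, 11 and 17 counts against the 3, 4 and 6 of WT. It was also the 1 of the 10 whose genotypes did not overlap in matIMs, where 10.1% of all genes did not, and Ido1 in matIMs was higher in 3 of 3 pairs of the same number. None of the 10 failed to overlap in moMs or tnsIMs, where 8.52% and 5.81% of all genes did. When any 1 of the 6 matIM libraries was left out, the number of genes that met the rule was 0, except that it was 2 without Ezr-KOm library 1.

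**Figure D5:**
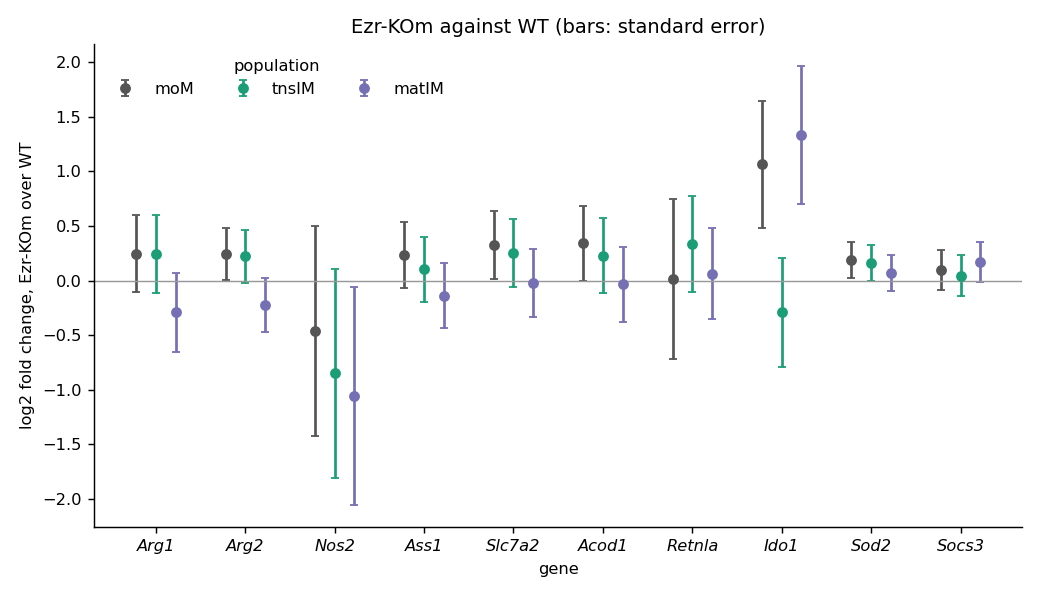
Log2 fold change of Ezr-KOm over WT for each gene in moMs (grey), tnsIMs (green) and matIMs (purple), with standard errors. Every edgeR adjusted p is near 1, the standard errors of Nos2 reach 0.96 to 0.99, and Ido1 in matIMs stands at 1.33.

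Neither arginase differed between genotypes past the test in any population. Arg1 stood at 0.25 ± 0.36 in the moM comparison, 0.24 ± 0.36 in that of tnsIMs and -0.29 ± 0.36 in that of matIMs, and Arg2 at 0.24 ± 0.24, 0.22 ± 0.24 and -0.22 ± 0.25. Nos2 was the least certain, at -0.46 ± 0.96, -0.85 ± 0.96 and -1.06 ± 0.99, and its WT and Ezr-KOm libraries of number 2 lay close together. In matIMs the ratio of Ezr-KOm to WT was 1.07 for number 1, 1.03 for number 2 and 0.129 for number 3, so that the mean difference came from a single pair. Acod1 stood at 0.34 ± 0.34, 0.23 ± 0.34 and -0.04 ± 0.34, Retnla at 0.01 ± 0.73, 0.34 ± 0.44 and 0.06 ± 0.42, and Ido1 outside matIMs at 1.06 ± 0.58 in moMs and -0.29 ± 0.50 in tnsIMs. Ass1, Slc7a2, Sod2 and Socs3 ranged from -0.14 to 0.32 over the 3 populations. A p that misses the threshold does not show that the genotypes were alike. For Nos2 the error of the fit without a block allows large differences in either direction. Taking the number alone as a block narrowed that error. The moM value of Nos2 then became -0.25 ± 0.44, its tnsIM value -0.51 ± 0.43 and its matIM value -0.82 ± 0.47. None of these passed the adjusted test either.

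Whether the population differences themselves changed with genotype was tested as an interaction. None of the 10 genes passed for tnsIMs against moMs, matIMs against tnsIMs or matIMs against moMs, where 0%, 0% and 0% of all genes passed by edgeR, and DESeq2 called 0 of the 10 in each. Without a block, none of the 10 had an unadjusted p under 0.05 either, and the smallest was that of Ido1 for matIMs against tnsIMs (1.63 ± 0.80, edgeR adjusted p = 1). With the mouse as a block, an unadjusted p under 0.05 was reached by 1 of the 10 for tnsIMs against moMs (Ido1, -1.42 ± 0.64), by 2 for matIMs against tnsIMs (Ido1, 1.76 ± 0.68, and Arg1, -0.49 ± 0.20) and by 3 for matIMs against moMs, where the numbers were not taken to pair the libraries (Arg1, -0.54 ± 0.20, Arg2, -0.50 ± 0.21, and Acod1, -0.40 ± 0.19), each with an edgeR adjusted p of 1. The shares of all genes at that unadjusted p with the block are not given here. No interaction passed the adjusted test. A call in one genotype alone (for example Socs3 in WT or Acod1 in Ezr-KOm mice) is therefore not a shown difference between the genotypes.

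The wider pathways were followed in lists of related genes that include these 10. In the comparison of WT matIMs with moMs, 4 of 19 tested genes of arginine uptake, the urea cycle and nitric oxide rose and 3 fell, with a median log2 fold change of -0.02 against 0.01 over all genes. In that comparison 13.4% of all genes tested rose and 11.4% fell, the shares against which each list's counts are to be read. Oat, which turns ornithine towards proline and glutamate, rose by 0.56 ± 0.13 (edgeR adjusted p = 0.00309), and Gatm, which uses arginine to make the creatine precursor, rose by 0.77 ± 0.19 (edgeR adjusted p = 0.00607). Spr, which makes the nitric oxide synthase cofactor tetrahydrobiopterin, rose by 0.77 ± 0.20 (edgeR adjusted p = 0.00918), and Slc7a7, a carrier of cationic amino acids, changed by -0.41 ± 0.13 (edgeR adjusted p = 0.0248). From moMs to tnsIMs 6 of the 19 rose and none fell, where 13% of all genes rose and 8.61% fell. Among them, chosen after their values were seen, were Nos3, the endothelial nitric oxide synthase (1.87 ± 0.52, edgeR adjusted p = 0.0145), and Ddah1 and Ddah2, which break down methylarginine inhibitors of these enzymes (2.02 ± 0.45 and 2.01 ± 0.33, edgeR adjusted p = 0.00309 and 0.000244). Their peak in tnsIMs lay beside that of the endothelial markers given above, whose part was not tested.

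Of 12 genes of polyamines, which are built from the ornithine that arginase releases, 2 rose and 4 fell from WT moMs to matIMs, against 13.4% and 11.4% of all genes. The 4 that fell were Smox (-1.27 ± 0.22, edgeR adjusted p = 0.000239), Oaz2 (-1.11 ± 0.17, edgeR adjusted p = 7.31e-05), Sat1 (-1.03 ± 0.16, edgeR adjusted p = 7.77e-05) and Paox (-0.85 ± 0.22, edgeR adjusted p = 0.00758). Smox, Sat1 and Paox encode enzymes that oxidize or acetylate polyamines, and Oaz2 encodes an inhibitor of ornithine decarboxylase. The list's median was -0.25.

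Of 25 genes around itaconate and the citrate cycle, 6 rose and 1 fell, against 13.4% and 11.4% of all genes, with a median of 0.11. The fall was in Idh1, the cytosolic isocitrate dehydrogenase (-1.75 ± 0.20, edgeR adjusted p = 2.77e-06). Slc25a10, the mitochondrial dicarboxylate carrier, rose by 1.36 ± 0.19 (edgeR adjusted p = 2.31e-05), Fh1, fumarate hydratase, by 1.24 ± 0.18 (edgeR adjusted p = 5.7e-05) and Slc25a1, the citrate carrier, by 0.63 ± 0.13 (edgeR adjusted p = 0.00123). Acod1 itself stood at -0.11 ± 0.34 in this comparison.

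Of 11 tested genes of tryptophan breakdown, 3 rose and 2 fell, against 13.4% and 11.4% of all genes. Downstream of Ido1, Kmo went from 13.1 to 183 CPM among WT means (3.80 ± 0.20, edgeR adjusted p = 2.35e-10) and Kynu from 3.99 to 24.7 CPM (2.62 ± 0.29, edgeR adjusted p = 2.1e-06), both highest in matIMs, where Ido1 was lowest. Kyat3, a kynurenine aminotransferase, rose by 0.96 ± 0.25 (edgeR adjusted p = 0.00853), and Tiparp, a target and repressor of the aryl hydrocarbon receptor, changed by -1.29 ± 0.21 (edgeR adjusted p = 0.000129).

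Both activation lists held genes that rose and genes that fell. Of 21 M1 markers, 6 rose and 4 fell from WT moMs to matIMs, with a median of 0.02, and of 22 M2 markers 10 rose and 6 fell, with a median of 0.27, against 13.4% and 11.4% of all genes. Marco, a scavenger receptor, rose by 4.70 ± 0.63 (edgeR adjusted p = 1.79e-05), Il12b, a subunit of IL-12 and IL-23, by 3.05 ± 0.54 (edgeR adjusted p = 0.000315) and Slamf1 by 2.76 ± 0.46 (edgeR adjusted p = 0.00017), while Il6 went the other way, at -1.54 ± 0.22 (edgeR adjusted p = 3.46e-05). On the M2 list, the chemokine genes Ccl22 and Ccl17 rose by 8.74 ± 0.29 (edgeR adjusted p = 6.03e-13) and 6.40 ± 0.52 (edgeR adjusted p = 3.93e-08) and the lectin gene Mgl2 by 5.74 ± 0.33 (edgeR adjusted p = 5.37e-10). Chil3, which encodes the chitinase-like protein Ym1, went from 5905 to 338 CPM among WT means (-4.13 ± 0.32, edgeR adjusted p = 2.64e-08). Arg1 and Chil3 thus lay with moMs and Retnla, Mgl2, Ccl17 and Ccl22 with matIMs, although all of them are on the M2 list. Ccl17 and Ccl22 are themselves on the list of mature dendritic cell markers, so their rise and that of the list are not separate. Mgl2 is also expressed by dendritic cells, whose markers rose in the same comparison.

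The small families were followed in the same comparison. Of the 8 genes of the SOCS family, Socs2 (2.40 ± 0.16, edgeR adjusted p = 3.74e-09) and Cish (1.10 ± 0.29, edgeR adjusted p = 0.00904) rose from WT moMs to matIMs while Socs3 fell. Of the 3 superoxide dismutases, Sod1, the cytosolic enzyme, rose by 0.51 ± 0.18 (edgeR adjusted p = 0.0457) while Sod2 fell. Of the resistin family, Retnlg rose by 3.49 ± 0.51 (edgeR adjusted p = 4.77e-05) as Retnla did, and is also on the list of neutrophil markers. Socs2 is also on that of mature dendritic cells. In the comparison of the genotypes, no gene of these lists passed an edgeR adjusted p of 0.05 in any of the 3 populations.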

How the data were processed

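The authors sorted the cells, prepared libraries with the SMART-Seq v4 and Nextera XT kits and sequenced paired ends of 150 bases. They deposited counts of reads per gene, made with STAR 2.7.9a (quantMode GeneCounts) on GRCm39 with the Gencode M29 annotation, and whether counting used strand is not given in the sources used here. The deposited counts (1 column per library) were fitted here with edgeR 4.0.16: genes were kept by filterByExpr with a minimum count of 10, scaled by TMM and fitted in 1 quasi-likelihood model of the 6 groups, and p-values were adjusted over all 15811 genes tested by the Benjamini-Hochberg method. The fit was also run on simulated counts. These held no shared effect of the replicate number, so they could not test the fit for such an effect. Standard errors are the log2 fold change over the square root of the F statistic. Correlations used log2 CPM with a prior count of 2. DESeq2 1.42.0 was an alternative. Exon lengths, overlaps and sequences came from GRCm39 with Gencode M39, and Gm5424 was aligned to Ass1 with BLAST 2.17.0.

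Members and lists were chosen with earlier results of these data known. Named were the 10 genes, from each list up to 4 others with the smallest p among those called in WT matIMs against moMs, Ezr, and the 3 genes most like each of the 10, given where the text turns on them.

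The study took its data from 3 mice of each genotype but does not tie numbers to mice. Same-numbered libraries deviated together between genotypes (9 pairs, r = 0.102 to 0.316, against at most 0.0508 for other pairs). Between populations r was 0.0905 to 0.397 in 18 such pairs, against at most 0.0316 in the 36 other pairs. It was over 0.1, a cut chosen here, in every pair except 1 of matIMs and moMs in each genotype (0.0947 and 0.0905). By that cut the numbers were taken to pair all comparisons but matIMs against moMs. Every same-numbered pair of matIMs and moMs nevertheless exceeded all pairs of other numbers, and numbers that stood for mice would pair those too. The main fit, which gave the calls, had no block, and the fits with a block are alternatives.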

Additional observations from a re-analysis of the deposited data

How the results depend on the processing

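Each of the 23 differences between populations that passed the test was set against 13 or 14 alternatives, which gave 313 values in all. Of these values, 293 passed in the same direction, 20 did not pass and 0 changed direction. The 20 were all of Sod2 and Socs3 in WT matIMs against moMs, of Sod2 in Ezr-KOm matIMs against moMs, and of Acod1 and Ido1 in Ezr-KOm matIMs against tnsIMs. Low counts limit Retnla in moMs and Ido1 in every group: a minimum of 10 counts in every library removed both genes, which left 0 of the 10 called in tnsIMs against moMs in either genotype, 3 in WT matIMs against tnsIMs, and 0 by the study's rule in matIMs of the 2 genotypes. The fit of each population alone also gave 0 by that rule. Library totals without TMM gave 3 in WT matIMs against moMs, and the WT libraries fitted alone gave 4 in tnsIMs against moMs.

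With the replicate block (the number alone), tnsIMs against moMs had 5 called in WT and 4 in Ezr-KOm mice. With the mouse as a block there were 6 and 6. The shares of all genes called with either block are not given here. In matIMs against moMs, where the numbers were not taken to pair the samples, the mouse as a block gave 8 calls in Ezr-KOm mice, adding Nos2 (-1.84), Acod1 (-0.51), Slc7a2 (-0.60) and Socs3 (-0.50), and in WT it added Nos2 (-1.22) and Ass1 (0.66). No interaction passed the adjusted test with either block, and no difference between the genotypes did with the number alone as a block.

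Leaving out 1 library at a time, the genes called numbered 2 to 4 in WT tnsIMs against moMs, 3 to 4 in WT matIMs against moMs and 1 to 2 in Ezr-KOm tnsIMs against moMs, and by the study's rule 0 to 1 in moMs and 0 to 2 in matIMs. Changes of direction, the cause of which was not tested, occurred only in differences that had not passed. Arg2 in tnsIMs against moMs in WT was 0.080 with upper-quartile scaling, 0.056 with library totals, 0.0071 without the count filter, 0.039 with 10 counts in every library, 0.022 with the replicate block, 0.035 with the mouse as a block and 0.013 by DESeq2. In Ezr-KOm mice it was 0.052 with upper-quartile scaling, 0.056 with library totals, 0.0071 with 10 counts in every library and 0.0035 with the replicate block. Between genotypes, Retnla in moMs was -0.00015 with library totals and -0.080 by DESeq2, and Slc7a2 in matIMs was 0.014 with the replicate block. Ranges over left-out libraries that crossed 0 were, for WT tnsIMs against moMs, -0.22 to 0.32 (Arg2), -0.080 to 1.56 (Nos2) and -0.11 to 0.50 (Slc7a2). For WT matIMs they were -0.32 to 0.14 (Ass1, against tnsIMs), -0.39 to 0.12 (Acod1, against moMs) and -0.51 to 0.11 (Slc7a2, against moMs). For Ezr-KOm mice they were -0.16 to 0.14 (Arg2, tnsIMs against moMs), -0.0058 to 0.86 (Nos2, tnsIMs against moMs) and -0.079 to 0.60 (Ass1, matIMs against moMs). Between genotypes in moMs they were -0.14 to 0.51 (Arg1), -0.93 to 0.32 (Nos2), -1.12 to 1.13 (Retnla) and -0.036 to 0.23 (Socs3). In tnsIMs they were -0.031 to 0.59 (Arg1), -1.35 to 0.048 (Nos2), -0.066 to 0.52 (Acod1), -0.17 to 0.30 (Ass1), -0.025 to 0.51 (Slc7a2), -0.66 to 0.11 (Ido1) and -0.10 to 0.22 (Socs3). In matIMs they were -0.57 to 0.024 (Arg1), -0.37 to 0.19 (Acod1), -0.55 to 0.12 (Ass1), -0.22 to 0.22 (Slc7a2), -0.18 to 0.29 (Retnla) and -0.051 to 0.26 (Sod2).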

Other observations

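Genes whose levels followed the remaining members most closely over the 18 libraries were Cdc42ep4 (Pearson r = 0.98), Clec4d (0.97) and Slpi (0.97) for Arg1, and Ets2 (0.97), Clec4d (0.97) and Cdc42ep4 (0.96) for Arg2, so that both arginases had 2 of 3 such genes in common. Acod1 was followed by Akr1c14 (0.90), Gata6 (0.89) and Il12a (0.87), and Slc7a2 by Slc1a2 (0.92), Adgb (0.91) and Zc3h12c (0.88). Sod2 was followed by Ccrl2 (0.92), Ralgds (0.92) and Inhba (0.92), Socs3 by Tor1aip1 (0.91), Rap2c (0.90) and Tifa (0.88), and Ass1, after Gm5424, by Rasgef1b (0.83) and Tubb4b (0.82). The libraries fall into 3 populations, and these values describe them without a test.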
